A study of Mus musculus with 12 samples.

Results

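Among the spinal cord genes measured on expression arrays in a mouse model of spinal muscular atrophy (SMA), 295 probe sets stood apart from wildtype on the same side in both SMA groups, with and without ceftriaxone. A probe set is a group of short probes on the array that reads 1 transcript or a family of like transcripts. These members were chosen by their measured values. A probe set had to have a mean log2(signal + 16) of at least 7.14 over all 12 arrays, and all 8 SMA arrays had to lie above, or all below, all 4 wildtype arrays. Both SMA group means also had to differ from the wildtype mean by at least 0.5 on that log2 scale. Of 13574 probe sets at or above the level, 244 met the rule above wildtype, which is 1.8%, and 66 met it below, which is 0.486%. Because the rule selected on these contrasts, differences from wildtype are given as a description without a test. The rule also leaves out Smn1, the Hox genes and 9 further genes, and 15 of the probe sets above wildtype, of 13 genes, were removed for this reason. The members are then 229 probe sets above wildtype (186 named genes and 16 probe sets with no single gene name) and 66 below (52 named genes and 6 probe sets without one). No gene had members on both sides.

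The arrays came from 13-day-old mice in 3 groups of 4. SMA ceftriaxone mice carried no intact mouse Smn allele and received 200 mg/kg of ceftriaxone daily into the peritoneum, starting on day 5. SMA vehicle mice had the same genotype and received vehicle. The mice called wildtype received vehicle and still had 1 intact mouse Smn allele. All 3 groups carried the human transgenes SMN2 and SMNΔ7 (line 4299, with the transgenes written Tg(SMN2*delta7)4299Ahmb and Tg(SMN2)89Ahmb and the targeted allele Smn1tm1Msd on an FVB background), so the comparison with wildtype sets mice with no mouse Smn against carriers, both with human SMN2 in the background. No untreated or ceftriaxone-treated wildtype arrays were analysed here. Sex is not stated in the labels, and the tissue is described as the whole cord in one place and as its lumbar region in another, from mice perfused with fixative. Each array reads the RNA of 1 animal's cord. Whether fewer cells of a type or less RNA per cell lies behind a lower signal cannot be told apart in such bulk tissue.

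SMN, the protein missing in SMA, helps to assemble the small nuclear ribonucleoproteins of the spliceosome in every cell, and spinal motor neurons are the cells most affected by its loss. In the cord of a mouse of this age oligodendrocytes are wrapping axons in myelin, while genes for axon outgrowth, adhesion and guidance, high in the embryo and the newborn, are declining. Ceftriaxone is a beta-lactam antibiotic that increases the astrocyte glutamate transporter GLT-1 in rodents.

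The targeted gene separated the genotypes. Smn1 had signals of 15.8, 3.3, 6.4 and 3.6 in SMA ceftriaxone arrays, 3.6 to 5.7 in SMA vehicle arrays and 263.4 to 414.3 in wildtype arrays. Wildtype array 2 stood apart: thymus and T cell markers summed to 59289.4 on it, against 8175.4 to 8224.7 on the other wildtype arrays, 7162.1 to 7873.2 in SMA ceftriaxone and 5322.3 to 6260.9 in SMA vehicle arrays. Its sum of 25 neuronal and synaptic markers was 93395.7, against 130082.6 to 134654.8 on the other wildtype arrays. This array was the lowest wildtype array for 145 of the 229 members above and the highest for 38 of the 66 members below, so the overall counts, and the genes it decides, are also given without it. Xist, an RNA made by the silenced X chromosome, had a signal over 1000 on all 4 SMA ceftriaxone arrays, 2 SMA vehicle arrays and 1 wildtype array.

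The members above wildtype were spread over a narrow range in ceftriaxone-treated cords and a wide one in vehicle-treated cords. Their median log2 difference from wildtype was 0.63 in SMA ceftriaxone (0.50 to 1.17) and 1.18 in SMA vehicle cords (0.55 to 3.29). The medians of the members below were -0.68 in SMA ceftriaxone (-1.25 to -0.51) and -1.28 in SMA vehicle cords (-3.89 to -0.51). Over all 13574 probe sets the medians were 0.01 in SMA ceftriaxone and 0.015 in SMA vehicle cords. The difference was the larger one in SMA vehicle cords for 274 members and in SMA ceftriaxone cords for 21. Above wildtype those were Aldh1l1, Arih2, Ercc5, Hnmt, Igfbp3, Kcna5, Pisd-ps3, Ptprz1, Sdc1, Slc1a3, Slc7a5 and Sox9, and the named ones below were Anp32a, Cyb5r1, Dffa, Ighm, Irak1, Rdm1 and Tpm2. Both comparisons share the same 4 wildtype arrays.

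**Figure D1:**
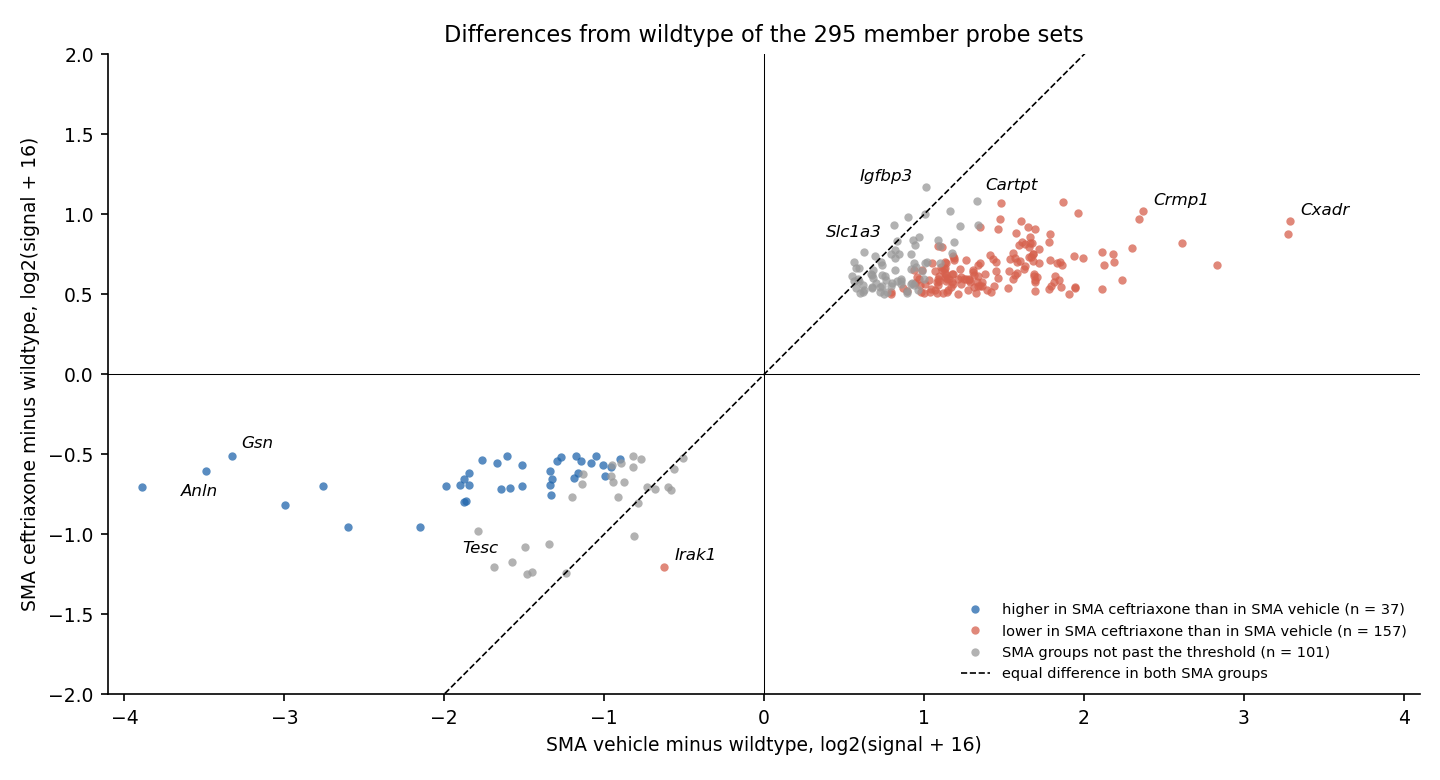
Difference of SMA ceftriaxone cords from wildtype (vertical axis) against the difference of SMA vehicle cords from wildtype (horizontal axis), in log2(signal + 16), for the 295 member probe sets. Colours give the limma comparison of the SMA groups, and most points lie nearer to 0 on the ceftriaxone axis, with 1 probe set of Irak1 among the exceptions.

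The rule set no threshold on the contrast of SMA ceftriaxone against SMA vehicle cords, although it is made from the same arrays. Genes whose treated cords came within 0.5 of wildtype are not members, so the members do not show how far treated cords returned towards wildtype in general. Among members above wildtype, 156 of 229 (68.1%) were lower in SMA ceftriaxone than in SMA vehicle cords at a limma adjusted p below 0.05, where 17.7% of all probe sets were lower. None was higher by this limma test: 0 passed, and 0 reached even an unadjusted p below 0.05. Among members below wildtype, 37 of 66 (56.1%) were higher in SMA ceftriaxone cords, where 18.3% of all probe sets were higher. The single member below that was lower still in SMA ceftriaxone cords was 1 probe set of Irak1, a kinase of interleukin and Toll-like receptor signalling, and the gene's 3 other probe sets did not show this. It is named because it is the only such member. Another 73 members above and 28 below did not pass, and in 63 and 18 of these the SMA arrays overlapped. Those that did not pass had medians of 0.65 in SMA ceftriaxone and 0.82 in SMA vehicle cords above wildtype, and of -0.71 and -0.93 below it. A difference that missed the threshold does not show equal levels, since the median standard error was 0.12 on the log2 scale with 4 arrays a group.

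Only 15 members differed from wildtype by at least 1 on the log2 scale in both SMA groups, 8 above and 7 below. Among members above, the one whose smaller difference was largest was Cartpt, the precursor of the neuropeptide CART. Cartpt had signals of 815.3, 806.0, 837.0 and 677.1 in SMA ceftriaxone cords, 990.4, 982.3, 838.8 and 911.5 in SMA vehicle cords, and 342.4, 250.7, 402.5 and 481.8 in wildtype cords. Every SMA signal lay well above the highest wildtype signal, and the 2 SMA groups nearly met without overlapping. The log2 difference from wildtype was 1.09 in SMA ceftriaxone and 1.33 in SMA vehicle cords, and that between the SMA groups, -0.24 ± 0.16 (SE), did not pass (adjusted p = 0.239). Mkrn3, an imprinted gene for a RING-finger protein that restrains the onset of puberty, had 769.4, 657.4, 917.7 and 495.1 in SMA ceftriaxone cords, 1324.8, 1253.0, 1166.7 and 1122.0 in SMA vehicle cords, and 255.7 to 412.7 in wildtype cords. The 3 groups of Mkrn3 did not overlap, with SMA ceftriaxone in the middle, and it was lower in SMA ceftriaxone than in SMA vehicle cords by a log2 difference of -0.80 ± 0.17 (adjusted p = 0.00327).

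The promoters of the members with the largest differences are shown because genes that move to the same side in both SMA groups invite a look at their start sites. Each runs from 250 bases before to 50 bases after the start, in RefSeq coordinates of GRCm38.p6, in the direction of transcription. Capitals mark a CRE (TGACGTCA), a CCAAT box (CCAAT, or ATTGG on the other strand) or a GC box (GGGCGG, or CCGCCC on the other strand). Cartpt lies on the minus strand at chr13:99900634-99900933, Mkrn3 on the minus strand at chr7:62420104-62420403, Tesc on the plus strand at chr5:118027493-118027792 and Lcp1 on the plus strand at chr14:75130873-75131172 (the first of 2 promoters of Lcp1 in the table).
Cartpt: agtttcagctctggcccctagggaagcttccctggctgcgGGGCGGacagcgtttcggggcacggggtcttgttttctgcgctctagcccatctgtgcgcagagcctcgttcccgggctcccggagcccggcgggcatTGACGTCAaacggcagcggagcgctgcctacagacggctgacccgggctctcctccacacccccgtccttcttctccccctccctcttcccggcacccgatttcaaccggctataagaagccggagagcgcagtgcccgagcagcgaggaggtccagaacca
Mkrn3: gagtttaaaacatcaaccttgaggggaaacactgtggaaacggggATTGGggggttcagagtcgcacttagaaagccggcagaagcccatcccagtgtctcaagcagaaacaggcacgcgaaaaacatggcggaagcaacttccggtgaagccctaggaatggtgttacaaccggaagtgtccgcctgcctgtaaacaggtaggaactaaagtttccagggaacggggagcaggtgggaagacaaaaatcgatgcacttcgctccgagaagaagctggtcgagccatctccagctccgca
Tesc: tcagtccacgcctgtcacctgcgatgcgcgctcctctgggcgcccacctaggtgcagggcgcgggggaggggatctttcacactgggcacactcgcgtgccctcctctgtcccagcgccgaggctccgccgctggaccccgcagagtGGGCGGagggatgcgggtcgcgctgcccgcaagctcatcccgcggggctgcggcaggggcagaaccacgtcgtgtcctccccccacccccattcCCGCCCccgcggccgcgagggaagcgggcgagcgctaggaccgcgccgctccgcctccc
Lcp1: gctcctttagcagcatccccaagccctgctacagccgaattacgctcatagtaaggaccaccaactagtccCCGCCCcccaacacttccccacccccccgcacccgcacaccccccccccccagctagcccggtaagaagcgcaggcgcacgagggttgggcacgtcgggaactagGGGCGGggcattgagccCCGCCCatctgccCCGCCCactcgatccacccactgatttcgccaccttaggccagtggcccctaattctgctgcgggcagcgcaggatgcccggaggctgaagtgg

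The CRE of the Cartpt window spans positions -112 to -105 from the start, and its GC box -210 to -205. Such a CRE was found in 7 of 141 promoters of members above (4.96%), in 0 of 41 of members below, in 3.41% of the promoters of all genes measured and in 1.89% of all 26742 promoters in the table. A GC box stood in 66.7% of promoters of members above, 78.0% of members below and 67.7% of all genes measured. CCAAT was found in 41.8% of members above, 46.3% of members below and 38.5% of all genes measured. The E-box CACGTG stood in 7.80%, 9.76% and 10.6% of the same sets, the AP-1 site TGANTCA in 4.96%, 0% and 4.31%, the glucocorticoid receptor half-site TGTTCT in 12.8%, 14.6% and 11.8%, and TATAAA in 7.80%, 4.88% and 6.67%. Both strands were searched, and the motifs do not overlap each other in the windows shown. Median GC content was 63.3% in the promoters of either side and 61.7% in those of all genes measured. These shares lie close together, and a match in a window is not a bound site.

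Of the other members above with at least 1 log2 in both groups, Igfbp3, which binds insulin-like growth factors, had the largest difference of SMA ceftriaxone cords from wildtype, 1.17. Igfbp3 had 274.8, 515.2, 349.6 and 637.7 in SMA ceftriaxone cords, 291.4, 460.0, 385.9 and 386.5 in SMA vehicle cords, and 248.3, 148.6, 135.4 and 201.7 in wildtype cords. The SMA groups overlapped fully, and the lowest SMA array stood close to the highest wildtype array. Crmp1, which relays semaphorin signals to the growth cone, averaged 3869 ± 625.5 in SMA ceftriaxone, 9829 ± 809.4 in SMA vehicle and 1917 ± 433.0 in wildtype cords (SD, n = 4 each). Amn, a subunit of the receptor for vitamin B12 bound to intrinsic factor, averaged 992.4 ± 142.7 in SMA ceftriaxone, 1930 ± 139.1 in SMA vehicle and 485.2 ± 67.8 in wildtype cords. Crmp1 fell in SMA ceftriaxone against SMA vehicle cords (log2 difference -1.35 ± 0.15, adjusted p = 6.29e-05), as did Amn (-0.96 ± 0.12, adjusted p = 9.07e-05), and both stayed above every wildtype array.

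A pair of members in this top group stood against other probe sets of their own genes. Trmt112, a partner that activates methyltransferases of tRNA and ribosomal RNA, had member signals of 252.8 to 334.1 in SMA ceftriaxone, 383.5 to 407.3 in SMA vehicle and 106.7 to 166.4 in wildtype cords. Another probe set of Trmt112 averaged 3391 in SMA ceftriaxone, 3657 in SMA vehicle and 3376 in wildtype cords, log2 differences from wildtype of 0.01 and 0.12. Gna13, a G protein alpha subunit, had differences of 1.02 in SMA ceftriaxone and 1.16 in SMA vehicle cords at its member probe set, while its other probe sets ran from 0.08 to 0.24 in SMA ceftriaxone and from -0.08 to 0.11 in SMA vehicle cords. For both genes the pattern was seen at 1 probe set and not at the gene's others. Which transcript each reads was not tested.

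**Figure D2:**
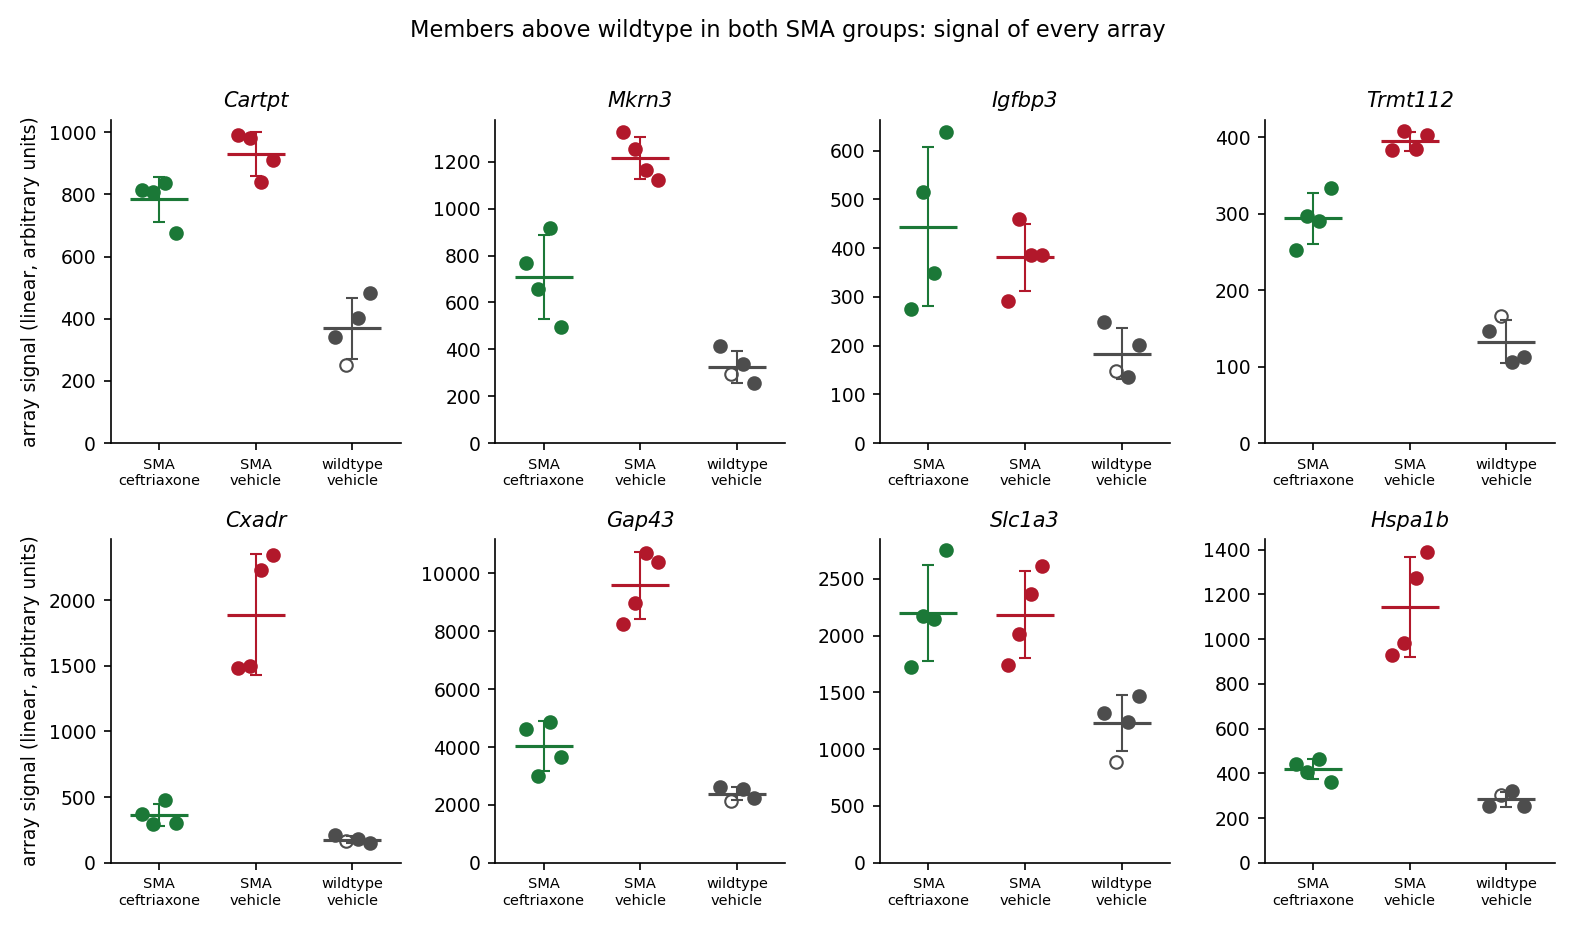
Signal of every array (linear scale, arbitrary units) for 8 members above wildtype, with SMA ceftriaxone, SMA vehicle and wildtype arrays from left to right. Lines are group means with SD (n = 4), the open symbol is wildtype array 2, and all SMA points lie above all wildtype points, while the distance between the SMA groups runs from none in Slc1a3 to a wide gap in Cxadr.

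Genes of axon growth, guidance and adhesion made up 33 probe sets of 26 genes, more than any other role given here to named members above. The roles were drawn up after the values were seen, genes of all kinds measured were not counted by role, and 62 probe sets of 55 genes had none of these roles. Beside the genes described next they were Spon1, Dpysl4, Npnt, Cdh4, Rac3, Sema5b, Cdh9, Efna3, Nectin2, Enc1, Cdh13, Arvcf, Cadm3, Dscaml1, Sema4g, Epha7, Pcdh8, Farp1, Cdk5r1 and Ntm. Their median difference from wildtype was 0.68 in SMA ceftriaxone and 1.35 in SMA vehicle cords. In 28 of the 33 probe sets the signal was lower in SMA ceftriaxone than in SMA vehicle cords, and the 5 that did not pass read Spon1, Sema5b, Cdh9 and Dscaml1.

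Cxadr, an adhesion molecule of immature neurons that serves viruses as a receptor, had the largest difference in SMA vehicle cords of all members above. Its signals were 374.2, 291.7, 474.4 and 305.9 in SMA ceftriaxone cords, 1487.1, 1495.3, 2232.6 and 2343.9 in SMA vehicle cords, and 211.5, 164.4, 182.0 and 147.3 in wildtype cords. The log2 difference of Cxadr from wildtype was 0.96 in SMA ceftriaxone and 3.29 in SMA vehicle cords. Ceftriaxone-treated cords overlapped neither other group (between the SMA groups -2.33 ± 0.19, adjusted p = 3.55e-05). Gap43, a growth cone protein, had 4637.0, 2981.9, 4848.4 and 3658.2 in SMA ceftriaxone cords, 8264.9 to 10699.8 in SMA vehicle cords, and 2146.6 to 2604.5 in wildtype cords. Dpysl3, a collapsin response mediator like Crmp1, averaged 1591 ± 213.5 in SMA ceftriaxone, 5632 ± 1224 in SMA vehicle and 897.9 ± 155.0 in wildtype cords. Another Dpysl3 probe set, no member, had differences from wildtype of 0.12 in SMA ceftriaxone and 1.58 in SMA vehicle cords. There the SMA ceftriaxone arrays overlapped wildtype. St8sia2, the enzyme that puts polysialic acid on neural cell adhesion molecules, averaged 154.0 ± 28.3 in SMA ceftriaxone, 753.8 ± 209.6 in SMA vehicle and 90.4 ± 19.1 in wildtype cords. All 3 were lower in SMA ceftriaxone than in SMA vehicle cords (adjusted p = 6.32e-05 for Gap43, 3.69e-05 for Dpysl3 and 3.80e-05 for St8sia2).

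Ncam1, the adhesion molecule that carries polysialic acid, was a member at 2 probe sets and not at others. One member averaged 2511 ± 339.4 in SMA ceftriaxone, 4913 ± 252.3 in SMA vehicle and 1531 ± 235.8 in wildtype cords. Another Ncam1 probe set averaged 2471 in SMA ceftriaxone, 2084 in SMA vehicle and 2295 in wildtype cords, with log2 differences from wildtype of 0.14 and -0.10. Of the 22 measured genes of a list for growing neurons, 8 were members: Crmp1, Cxadr, Dpysl3, Gap43, Ncam1, Meg3, Sox11 and St8sia2. On that list 20 genes were lower in SMA ceftriaxone than in SMA vehicle cords. Over all 8004 genes measured, 17.8% were lower, 19.9% were higher and 2.97% were members, the shares against which the counts of this and the other lists stand. For the growing neurons the medians from wildtype were 0.34 in SMA ceftriaxone and 1.60 in SMA vehicle cords.

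Transcription factors and chromatin proteins were the next group, with 25 probe sets of 21 genes: Neurod1, Neurod6, Ebf1, Ebf3, Zic1, Meis2, Sox9, Sox11, Dpf1, Id4, Dach1, Macroh2a3, Smarca1, Plagl1, Deaf1, Sub1, Crebzf, Nr2f1, Zfp503, Tcfl5 and Hmgb3. Their medians from wildtype were 0.67 in SMA ceftriaxone and 1.42 in SMA vehicle cords, and 20 of the 25 were lower in SMA ceftriaxone than in SMA vehicle cords. Sox11, a factor of newborn neurons, had 293.9, 289.3, 260.6 and 195.6 in SMA ceftriaxone cords, 320.7, 809.5, 936.6 and 1253.2 in SMA vehicle cords, and 116.6 to 193.2 in wildtype cords. The SMA vehicle cords spread widely, and the lowest of them stood just above the SMA ceftriaxone range (-1.48 ± 0.32 between the SMA groups, adjusted p = 0.00295). Ebf1, an early factor of neuron and B cell differentiation, averaged 694.5 ± 91.5 in SMA ceftriaxone, 1736 ± 116.6 in SMA vehicle and 471.6 ± 71.7 in wildtype cords (adjusted p = 3.69e-05 between the SMA groups). Further Ebf1 probe sets, no members, had differences from wildtype of 0.20 and 0.32 in SMA ceftriaxone and 1.36 and 1.62 in SMA vehicle cords. At the first of these the SMA ceftriaxone arrays overlapped wildtype. Neurod6, a factor of differentiating neurons chosen here after its values were seen, had 195.3, 154.0, 235.4 and 175.6 in SMA ceftriaxone cords, 475.6 to 659.0 in SMA vehicle cords and 75.9 to 125.7 in wildtype cords, and the 3 groups did not overlap.

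Imprinted and growth-related genes ran through several of these groups. Of 18 measured genes of the insulin-like growth factor axis and imprinted growth list, 4 were members: Igfbp3, Igfbp5, Meg3 and Plagl1. Igfbp5, another binding protein of insulin-like growth factors, had 1313.7, 1991.3, 2069.2 and 1729.6 in SMA ceftriaxone cords, 3140.3, 2655.2, 3388.1 and 5748.4 in SMA vehicle cords, and 870.4 to 1206.5 in wildtype cords. Meg3, an imprinted long non-coding RNA, had 1348.6, 1891.7, 2268.2 and 2164.1 in SMA ceftriaxone cords, 3235.4 to 6596.0 in SMA vehicle cords and 1183.3 to 1344.9 in wildtype cords. The lowest SMA ceftriaxone array thus barely cleared the highest wildtype array. Further Meg3 probe sets, no members, had differences from wildtype of 0.26, 0.31 and 0.82 in SMA ceftriaxone and 2.38, 1.51 and 1.54 in SMA vehicle cords. At these the SMA ceftriaxone arrays overlapped wildtype. Plagl1, an imprinted zinc finger factor, averaged 2128 ± 219.5 in SMA ceftriaxone, 3443 ± 253.1 in SMA vehicle and 1394 ± 266.2 in wildtype cords. Igfbp5 (-1.02 ± 0.21, adjusted p = 0.00233), Meg3 (-1.40 ± 0.20, adjusted p = 0.000253) and Plagl1 (-0.69 ± 0.13, adjusted p = 0.00114) were lower in SMA ceftriaxone than in SMA vehicle cords, whereas Igfbp3 did not pass (0.16 ± 0.25, adjusted p = 0.644). On the whole list 2 genes were higher and 7 lower in SMA ceftriaxone cords.

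Peptides, growth factors and receptors made up 18 probe sets of as many genes, with medians from wildtype of 0.69 in SMA ceftriaxone and 1.23 in SMA vehicle cords. Beside Cartpt, Igfbp3 and Igfbp5 they were Crim1, Gpc3, Crlf2, Gpc4, Alk, Sdc1, Sfrp2, Acvr2a, Fzd9, Pnoc, Socs2, Gdf10, Kit, Timp3 and Fzd2. Of these 18, 10 were lower in SMA ceftriaxone than in SMA vehicle cords. Pnoc, the precursor of the neuropeptide nociceptin, also chosen after its values were seen, had 1009.1, 825.5, 933.5 and 826.1 in SMA ceftriaxone cords, 1543.1 to 1999.8 in SMA vehicle cords and 459.8 to 662.5 in wildtype cords. Unlike Cartpt, Pnoc separated the SMA groups clearly (-0.95 ± 0.12, adjusted p = 0.000108). A test of the difference between the 2 genes was not made.

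Ion channels and receptors gave 15 probe sets of 13 genes (Scn3b, Kcna5, Cacna2d1, Gpr12, Trpc5, Grik5, Kcnip1, Kcnmb2, Kcnk2, Npy1r, Grm8, Chrna3 and Scn2a), of which 11 were lower in SMA ceftriaxone than in SMA vehicle cords. Scn3b, a beta subunit of voltage-gated sodium channels, had 2374.0, 1970.4, 2333.3 and 2300.2 in SMA ceftriaxone cords, 3206.7 to 3945.4 in SMA vehicle cords and 970.0 to 1296.5 in wildtype cords, with no overlap of any groups. Genes of the synapse and its vesicles gave 15 probe sets of 12 genes (Syt17, Grip1, Hpca, Cplx2, Lrrtm1, Svop, Myo5a, Rab27b, Kif5c, Cbln1, Hpcal1 and Synpr), 10 of them lower in SMA ceftriaxone cords. Cplx2, a complexin that clamps vesicle fusion, averaged 822.8 ± 160.7 in SMA ceftriaxone, 922.9 ± 182.4 in SMA vehicle and 481.3 ± 94.7 in wildtype cords, and the SMA groups overlapped (adjusted p = 0.497). Celf4, a neuronal RNA-binding protein, averaged 2690 ± 157.9 in SMA ceftriaxone, 3714 ± 312.6 in SMA vehicle and 1718 ± 247.6 in wildtype cords (adjusted p = 0.00352 between the SMA groups). Of 24 measured pan-neuronal and synaptic genes, Celf4 and Cplx2 were members above and Nefh below, and the list's median difference from wildtype was 0.14 in SMA ceftriaxone and 0.30 in SMA vehicle cords.

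RNA processing and translation gave 12 probe sets of 10 genes (Trmt112, Snrpa1, Cirbp, Rbfox2, Eif2s2, Rbbp6, Celf4, Rpl37a, Rps20 and Ptbp2). Snrpa1, the A' protein of the U2 small nuclear ribonucleoprotein, was the only member among 19 measured genes of the SMN complex and the ribonucleoproteins it assembles. At its member of larger difference, Snrpa1 had 1384.9, 1260.8, 1356.4 and 1601.3 in SMA ceftriaxone cords, 1523.2, 1727.3, 1872.3 and 1796.2 in SMA vehicle cords, and 624.1, 910.0, 762.9 and 644.2 in wildtype cords. Another Snrpa1 probe set, no member, had differences from wildtype of 0.91 in SMA ceftriaxone and 1.34 in SMA vehicle cords. The SMA groups overlapped slightly, and Snrpa1 did not pass between them (-0.30 ± 0.12, adjusted p = 0.0644), although it did without wildtype array 2 (adjusted p = 0.0149). The list had a median from wildtype of 0.01 in SMA ceftriaxone and 0.18 in SMA vehicle cords, and 4 of its genes were lower in SMA ceftriaxone than in SMA vehicle cords. Cirbp, an RNA-binding protein induced by cold, averaged 1784 ± 425.5 in SMA ceftriaxone, 2904 ± 129.0 in SMA vehicle and 914.0 ± 68.2 in wildtype cords (adjusted p = 0.00134 between the SMA groups).

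Glial, transport and metabolic genes were, of the groups above with 10 or more probe sets, the one in which the largest share did not separate the SMA groups: 12 of 20 probe sets did not pass, and 8 were lower in SMA ceftriaxone than in SMA vehicle cords. The genes were Gstm1, Slc1a3, Xpr1, Slc15a2, Slc7a5, Selenbp1, Slc27a3, Cyb5r3, Lpcat1, Mgst1, Ptprz1, Slc7a3, Hnmt, Slc27a1, Aldh1l1, Cbs, Tfr2 and Fads3. Slc1a3, the astrocyte glutamate transporter GLAST, had 1723.9, 2174.9, 2147.7 and 2754.4 in SMA ceftriaxone cords, 1740.3, 2019.1, 2371.1 and 2613.7 in SMA vehicle cords, and 1315.6, 887.6, 1244.1 and 1470.9 in wildtype cords. The SMA groups covered the same range, with a log2 difference between them of 0.01 ± 0.17 (adjusted p = 0.98). Both other Slc1a3 probe sets lay on the same side, at 0.56 and 0.75 in SMA ceftriaxone and 0.66 and 1.07 in SMA vehicle cords. Aldh1l1, a folate enzyme that marks astrocytes, averaged 1865 ± 98.3 in SMA ceftriaxone, 1785 ± 131.4 in SMA vehicle and 1230 ± 234.3 in wildtype cords. Sox9, a glial transcription factor, averaged 284.1 ± 26.9 in SMA ceftriaxone, 264.9 ± 22.6 in SMA vehicle and 173.3 ± 21.3 in wildtype cords.

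These 3 genes were the members among 22 measured astrocyte genes. That list as a whole had medians from wildtype of 0.20 in SMA ceftriaxone and -0.21 in SMA vehicle cords, and 16 of its genes were higher in SMA ceftriaxone than in SMA vehicle cords. The summed signal of the astrocyte markers was 117789.4 to 134497.2 in SMA ceftriaxone, 79488.0 to 92158.9 in SMA vehicle and 83600.8 to 122661.1 in wildtype arrays. Wildtype array 2 held the lowest of these wildtype sums, and the other 3 began at 111059.5. Without that array Slc1a3 still met the rule, while Aldh1l1, Sox9, Ptprz1 and Mgst1 had a difference under 0.5 in at least 1 SMA group. For Aldh1l1 the differences were then 0.48 in SMA ceftriaxone and 0.41 in SMA vehicle cords. The part of the astrocyte share in these differences was not tested.

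Gstm1, which conjugates glutathione to toxic compounds, had 1200.3, 1750.1, 1640.4 and 1806.0 in SMA ceftriaxone cords, 1943.3 to 2408.7 in SMA vehicle cords and 599.9 to 970.7 in wildtype cords. Gstm1 and the microsomal Mgst1 were the members among 21 measured genes of the NRF2 and antioxidant list, of which 8 were higher and 2 lower in SMA ceftriaxone than in SMA vehicle cords. Another Gstm1 probe set, no member, had differences from wildtype of 0.21 in SMA ceftriaxone, with overlap, and 0.73 in SMA vehicle cords. Gstm1 has close paralogs, so its signal may include theirs. Slc7a5, the large neutral amino acid transporter, averaged 1598 ± 100.2 in SMA ceftriaxone, 1451 ± 131.4 in SMA vehicle and 940.9 ± 161.0 in wildtype cords, with overlapping SMA groups (adjusted p = 0.351). Slc7a3, a transporter of cationic amino acids, averaged 497.9 ± 49.6 in SMA ceftriaxone, 649.4 ± 31.0 in SMA vehicle and 331.9 ± 51.2 in wildtype cords, and was lower in SMA ceftriaxone than in SMA vehicle cords (adjusted p = 0.0185). Both belong to the 22 measured genes of the integrated stress and ATF4 list, whose remaining member, Sdf2l1, lay below wildtype.

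G protein and kinase signalling gave 9 probe sets (Gna13, Gng4, Dusp26, Arf3, Cdc42, Pkia, Ensa, Gng2 and Gnaz), 7 of them lower in SMA ceftriaxone than in SMA vehicle cords. Cell death, growth arrest and DNA repair gave 4 (Bbc3, Bcl2, Rprm and Ercc5), of which only Rprm was lower in SMA ceftriaxone cords. Bbc3, the p53-induced death protein PUMA, had 301.6, 312.9, 415.8 and 383.5 in SMA ceftriaxone cords, 562.3, 443.6, 407.3 and 473.1 in SMA vehicle cords, and 176.8, 270.8, 170.8 and 115.5 in wildtype cords. The SMA groups overlapped at 1 array each, and the difference between them did not pass (-0.40 ± 0.20, adjusted p = 0.132), although it did without wildtype array 2 (adjusted p = 0.0362). Bbc3 was the only member among 33 measured p53 targets, several others of which the rule leaves out by name.

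The other 55 named genes above wildtype filled 62 probe sets, 45 of them lower in SMA ceftriaxone than in SMA vehicle cords. Beside Mkrn3, Amn and Meg3 and the genes described next they were Ly6h, Pisd-ps3, Cgref1, Sh3yl1, Fxyd6, Mab21l1, 1190005I06Rik, Amy1, Rsph9, Cpne2, St6galnac5, Dzip1, Crabp1, Fhl2, Sobp, Sbk1, Krt1, Hap1, Rimklb, R74862, D430019H16Rik, Crip2, Sidt1, Shd, Neurl1a, Arih2, Dcbld1, Bex4, Atp8a2, Crybb1, Masp1, Lypd1, Palm, Tex15, Adhfe1, Tpbg, Zdhhc2, Cavin2, Ufsp1, Tmem191c, Snhg8, Dlg5, Rusc2, Klhl26, Ccdc85a, Vit, Ahi1 and Col26a1. Hspa1b, an inducible HSP70 chaperone, had 443.3, 404.2, 462.5 and 362.0 in SMA ceftriaxone cords, 928.8, 981.7, 1274.2 and 1389.2 in SMA vehicle cords, and 253.1 to 320.7 in wildtype cords. Its probe sets may also read the nearly identical Hspa1a. Hspa1b was a member among 16 measured genes of the heat shock chaperone list, as was the cold-induced Cirbp, which is no chaperone. The list's median from wildtype was -0.06 in SMA ceftriaxone and -0.10 in SMA vehicle cords. Arrdc4, an arrestin-like relative of Txnip, averaged 235.7 ± 41.5 in SMA ceftriaxone, 629.0 ± 34.3 in SMA vehicle and 111.4 ± 10.8 in wildtype cords (adjusted p = 3.69e-05 between the SMA groups). Another Arrdc4 probe set, no member, had differences from wildtype of 0.11 in SMA ceftriaxone, with overlap, and 0.77 (rounded) in SMA vehicle cords. Cry2, a repressor of the circadian clock, averaged 848.6 ± 97.3 in SMA ceftriaxone, 1088 ± 128.3 in SMA vehicle and 572.3 ± 106.0 in wildtype cords, and was the only member among 14 measured clock genes (adjusted p = 0.0584 between the SMA groups, and 0.0175 without wildtype array 2). Mlf1, a gene of ciliated cells, averaged 139.0 ± 27.9 in SMA ceftriaxone, 176.0 ± 52.4 in SMA vehicle and 87.6 ± 6.66 in wildtype cords (adjusted p = 0.245).

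**Figure D3:**
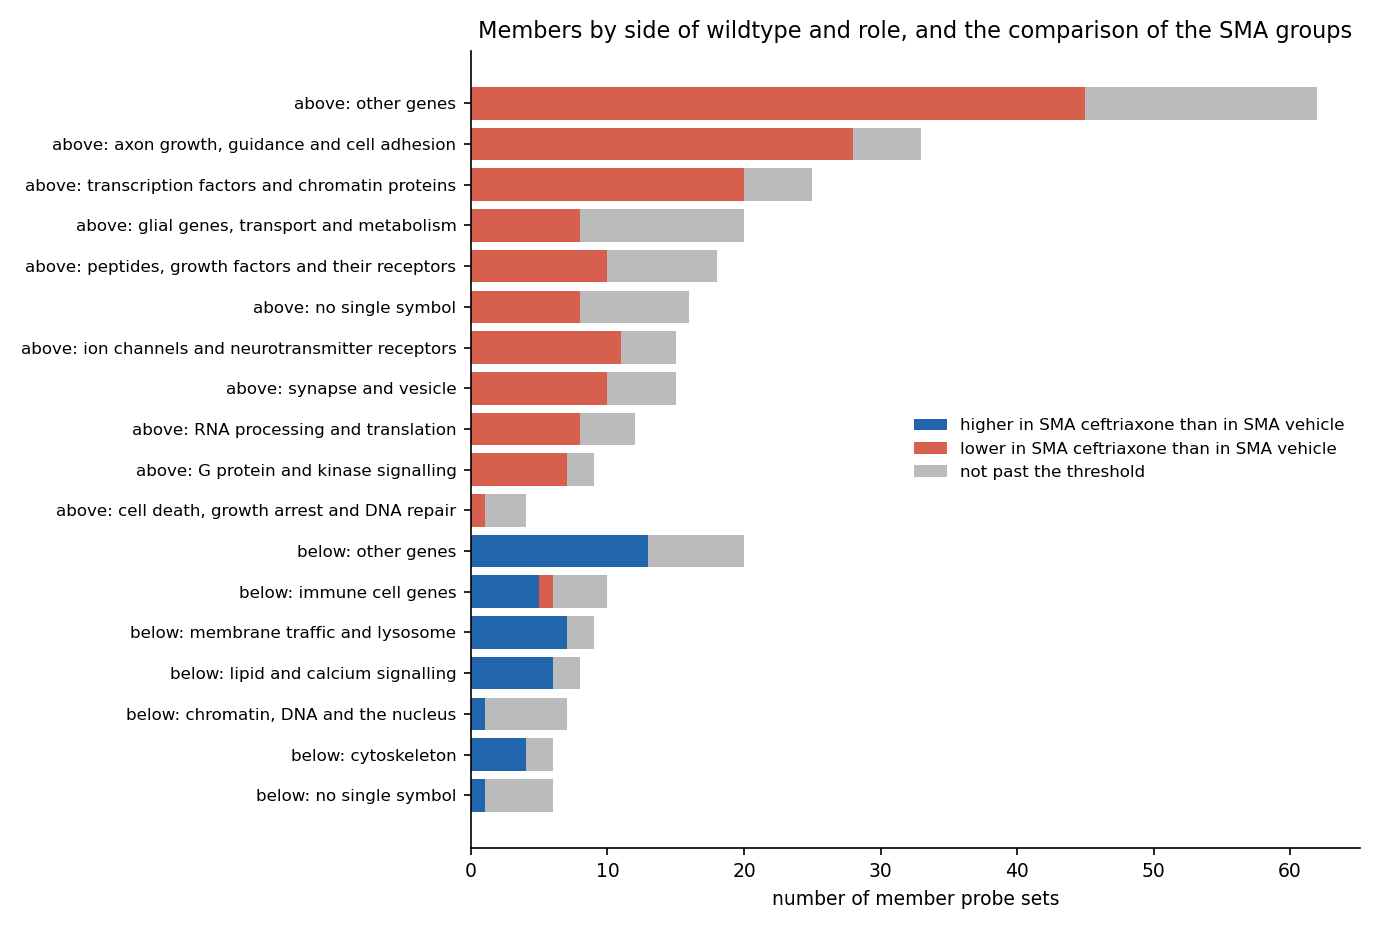
Number of member probe sets by side of wildtype and role, coloured by the limma result between the SMA groups. Most groups above wildtype are mainly lower in SMA ceftriaxone cords, with 28 of 33 probe sets of axon growth and adhesion, while 12 of 20 glial, transport and metabolic probe sets did not pass.

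Below wildtype, the named genes whose smaller difference was largest were Ighm and Lcp1, given with the immune genes, where wildtype array 2 sets their size. Next came Tesc, tescalcin, a calcium-binding regulator of the sodium-proton exchanger. Tesc had 370.8, 500.9, 306.6 and 381.1 in SMA ceftriaxone cords, 236.4, 377.0, 246.6 and 294.3 in SMA vehicle cords, and 1008.8, 651.9, 787.6 and 917.3 in wildtype cords. Every SMA signal lay below the lowest wildtype signal, and the SMA groups overlapped. The log2 difference from wildtype was -1.08 in SMA ceftriaxone and -1.50 in SMA vehicle cords, and that between the SMA groups, 0.42 ± 0.18, did not pass (adjusted p = 0.0850). Without wildtype array 2 in the fit it did (adjusted p = 0.0439). A further Tesc probe set was a member too, at -1.06 in SMA ceftriaxone and -1.35 in SMA vehicle cords.

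Tesc belongs to 8 probe sets of lipid and calcium signalling, with Gng11, Anxa5, Pla2g4a, Pip4k2a and Grk5, of which 6 were higher in SMA ceftriaxone than in SMA vehicle cords. Anxa5, annexin A5, which binds phosphatidylserine, had 2256.1, 2096.1, 1921.8 and 2165.6 in SMA ceftriaxone cords, 1219.4, 1088.8, 833.5 and 879.5 in SMA vehicle cords, and 3322.7 to 4103.2 in wildtype cords. Its 3 groups did not overlap, and SMA ceftriaxone stood in the middle (1.07 ± 0.12, adjusted p = 6.09e-05). Pip4k2a, a phosphoinositide kinase, averaged 1275 ± 189.3 in SMA ceftriaxone, 654.6 ± 89.6 in SMA vehicle and 1884 ± 103.0 in wildtype cords. Gng11, a G protein gamma subunit, averaged 1095 ± 142.0 in SMA ceftriaxone, 519.8 ± 146.2 in SMA vehicle and 1948 ± 470.9 in wildtype cords. Both were higher in SMA ceftriaxone than in SMA vehicle cords (adjusted p = 9.81e-05 for Pip4k2a and 0.00118 for Gng11).

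Membrane traffic and the lysosome gave 9 probe sets of 8 genes (Rab37, Rab7b, Arf6, Sft2d2, Cpd, Lipa, Esyt1 and Spg20), of which 7 were higher in SMA ceftriaxone than in SMA vehicle cords. Rab7b, a small GTPase of late endosomes, had 202.8, 215.1, 190.1 and 118.7 in SMA ceftriaxone cords, 60.7, 26.4, 12.7 and 20 in SMA vehicle cords, and 362.4, 223.3, 387.5 and 354.0 in wildtype cords. Part of the SMA vehicle signal was near the offset of 16, which understates the log2 difference of -2.99 in that group. Rab37, a GTPase of secretory granules, averaged 195.4 ± 31.1 in SMA ceftriaxone, 77.1 ± 19 in SMA vehicle and 392.3 ± 42.6 in wildtype cords.

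Cytoskeletal members below were Nefh, Msn, Anln, Tpm2, Tln1 and Gsn, at 1 probe set each, and 4 of these were higher in SMA ceftriaxone than in SMA vehicle cords. Nefh, the heavy neurofilament of large axons, had 4638.1, 4600.6, 4235.8 and 5062.3 in SMA ceftriaxone cords, 2969.5, 3507.8, 2706.1 and 2495.5 in SMA vehicle cords, and 8288.5, 5222.6, 7764.4 and 8439.9 in wildtype cords. The groups did not overlap, though wildtype array 2 came close to SMA ceftriaxone (between the SMA groups 0.67 ± 0.14, adjusted p = 0.00305). Anln, anillin, a septin partner in myelin, had 872.9, 991.3, 871.5 and 1299.7 in SMA ceftriaxone cords, 196.8, 142.3, 91.3 and 82.0 in SMA vehicle cords, and 1333.7 to 1700.2 in wildtype cords. Gsn, gelsolin, an actin-severing protein high in oligodendrocytes, had 7591.8, 7568.1, 7635.6 and 8088.4 in SMA ceftriaxone cords, 1985.9, 1572.9, 787.7 and 560.9 in SMA vehicle cords, and 8409.2 to 13783.6 in wildtype cords.

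The log2 difference from wildtype was -0.51 in SMA ceftriaxone and -3.32 in SMA vehicle cords for Gsn, and -0.61 and -3.49 for Anln. Gsn thus stood at the size threshold in SMA ceftriaxone cords, and its 3 other probe sets, at -0.49 to -0.29 there, did not reach it. Gsn and Anln were the members among 24 measured genes of mature oligodendrocytes and myelin. Of that list 23 were higher in SMA ceftriaxone than in SMA vehicle cords, and its medians from wildtype were -0.32 in SMA ceftriaxone and -2.60 in SMA vehicle cords. Its summed signal was 162001.5 to 180877.3 in SMA ceftriaxone, 41517.9 to 81877.4 in SMA vehicle and 142765.0 to 235254.0 in wildtype arrays, or 190869.8 and more without wildtype array 2. Thus SMA ceftriaxone sums overlapped wildtype only through that array. The part of the myelinating cell share in the members' differences was not tested.

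Genes of immune cells gave 10 probe sets of 7 genes below wildtype (Ighm, Lcp1, Ptpn6, Selplg, Adam17, Irak1 and P2rx4), and wildtype array 2 set the size of several. Lcp1, an actin-bundling protein of white blood cells, had 273.3, 262.3, 290.9 and 274.9 in SMA ceftriaxone cords, 252.8, 250.4, 252.7 and 189.9 in SMA vehicle cords, and 491.3, 1906.7, 465.3 and 456.6 in wildtype cords. Its difference from wildtype was -1.24 in SMA ceftriaxone and -1.45 in SMA vehicle cords, and -0.74 and -0.96 without wildtype array 2. Ighm, the heavy chain of immunoglobulin M, had 128.5 to 199.9 in SMA ceftriaxone, 130.9 to 197.4 in SMA vehicle and 232.0, 1884.6, 282.6 and 217.8 in wildtype cords, with differences of -1.24 in both SMA groups and -0.52 in both without array 2. Another Ighm probe set lay at 0.03 in SMA ceftriaxone and -0.03 in SMA vehicle cords. Both Lcp1 and Ighm still met the rule without array 2, whereas Ptpn6 and Selplg did not.

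Irak1 had 298.5, 275.9, 503.0 and 421.6 in SMA ceftriaxone cords, 485.8, 546.7, 590.5 and 589.5 in SMA vehicle cords, and 905.2, 861.2, 866.7 and 804.4 in wildtype cords. One ceftriaxone array reached into the SMA vehicle range. The log2 difference from wildtype was -1.20 in SMA ceftriaxone and -0.62 in SMA vehicle cords, and that between the SMA groups was -0.58 ± 0.16 (adjusted p = 0.0112). The 3 other Irak1 probe sets differed from wildtype by -0.17, -0.12 and -0.03 in SMA ceftriaxone and by -0.51, -0.29 and -0.03 in SMA vehicle cords. Their SMA ceftriaxone minus SMA vehicle differences were 0.34, 0.17 and 0.00, and none passed (limma adjusted p = 0.061, 0.241 and 0.999), so the lower signal in SMA ceftriaxone cords was seen at 1 of 4 probe sets. The list of complement and microglia genes held no member, and 7 of its 18 measured genes were higher in SMA ceftriaxone than in SMA vehicle cords.

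Members of chromatin, DNA and the nucleus mostly did not separate the SMA groups: of Anp32a, Rdm1, Haus3, Ints13, Dffa, Kmt5a and Rcor1 only Kmt5a passed. Kmt5a, the methyltransferase of histone H4 lysine, averaged 854.3 ± 31.2 in SMA ceftriaxone, 389.2 ± 62.5 in SMA vehicle and 1262 ± 48.4 in wildtype cords (adjusted p = 3.69e-05). Anp32a, an acidic nuclear phosphoprotein, had 406.8, 532.8, 442.3 and 693.2 in SMA ceftriaxone cords, 516.5, 644.8, 578.1 and 601.9 in SMA vehicle cords, and 803.9, 925.9, 1160.5 and 1349.1 in wildtype cords. Its other probe sets had differences from wildtype of -0.02 and 0.02 in SMA ceftriaxone and 0.44 and 0.34 in SMA vehicle cords. The lower signal in SMA cords was thus seen at 1 of the 3 Anp32a probe sets.

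The other 18 named genes below were Glcci1, Slco3a1, Kcnab2, Trim59, Plekha2, Chordc1, Emb, Usp45, Cast, Desi1, Frmd8, B3gnt2, B230308N11Rik, Atp7a, Sdf2l1, Fryl, Lztfl1 and Cyb5r1, at 20 probe sets, 13 of them higher in SMA ceftriaxone than in SMA vehicle cords. Slco3a1, an organic anion transporter, had 391.5, 384.2, 333.5 and 406.3 in SMA ceftriaxone cords, 139.6, 119.1, 86.7 and 99.6 in SMA vehicle cords, and 743.5, 559.8, 924.7 and 812.2 in wildtype cords, with no overlap (1.65 ± 0.16, adjusted p = 3.80e-05). Further Slco3a1 probe sets, no members, had differences from wildtype of -0.31 and -0.36 in SMA ceftriaxone and -0.45 and -0.91 in SMA vehicle cords. At the first of these SMA ceftriaxone arrays overlapped both other groups, and the SMA groups did not separate (0.14 ± 0.12, limma adjusted p = 0.379). The second was higher in SMA ceftriaxone than in SMA vehicle cords (0.55 ± 0.09, adjusted p = 0.000443). Frmd8, a FERM domain protein that holds the protease regulator iRhom at the membrane, averaged 612.2 ± 74.9 in SMA ceftriaxone, 253.1 ± 46.3 in SMA vehicle and 944.3 ± 61.6 in wildtype cords. Sdf2l1, a protein of the endoplasmic reticulum, averaged 257.9 ± 24.0 in SMA ceftriaxone, 165.3 ± 27.9 in SMA vehicle and 383.8 ± 42.5 in wildtype cords (adjusted p = 0.00318). Glcci1, a glucocorticoid-induced gene, had 228.4 to 248.0 in SMA ceftriaxone and 97.3 to 178.7 in SMA vehicle cords, against 285.9, 1890.4, 332.7 and 307.8 in wildtype cords, and it did not meet the rule without array 2 (-0.34 in SMA ceftriaxone and -1.15 in SMA vehicle cords). For Glcci1 the SMA ceftriaxone signals all lay above the SMA vehicle signals, by 0.81 with or without that array. The standard error, shared by the groups, was 0.46 with it (adjusted p = 0.184) and 0.14 without it (adjusted p = 0.000415).

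**Figure D4:**
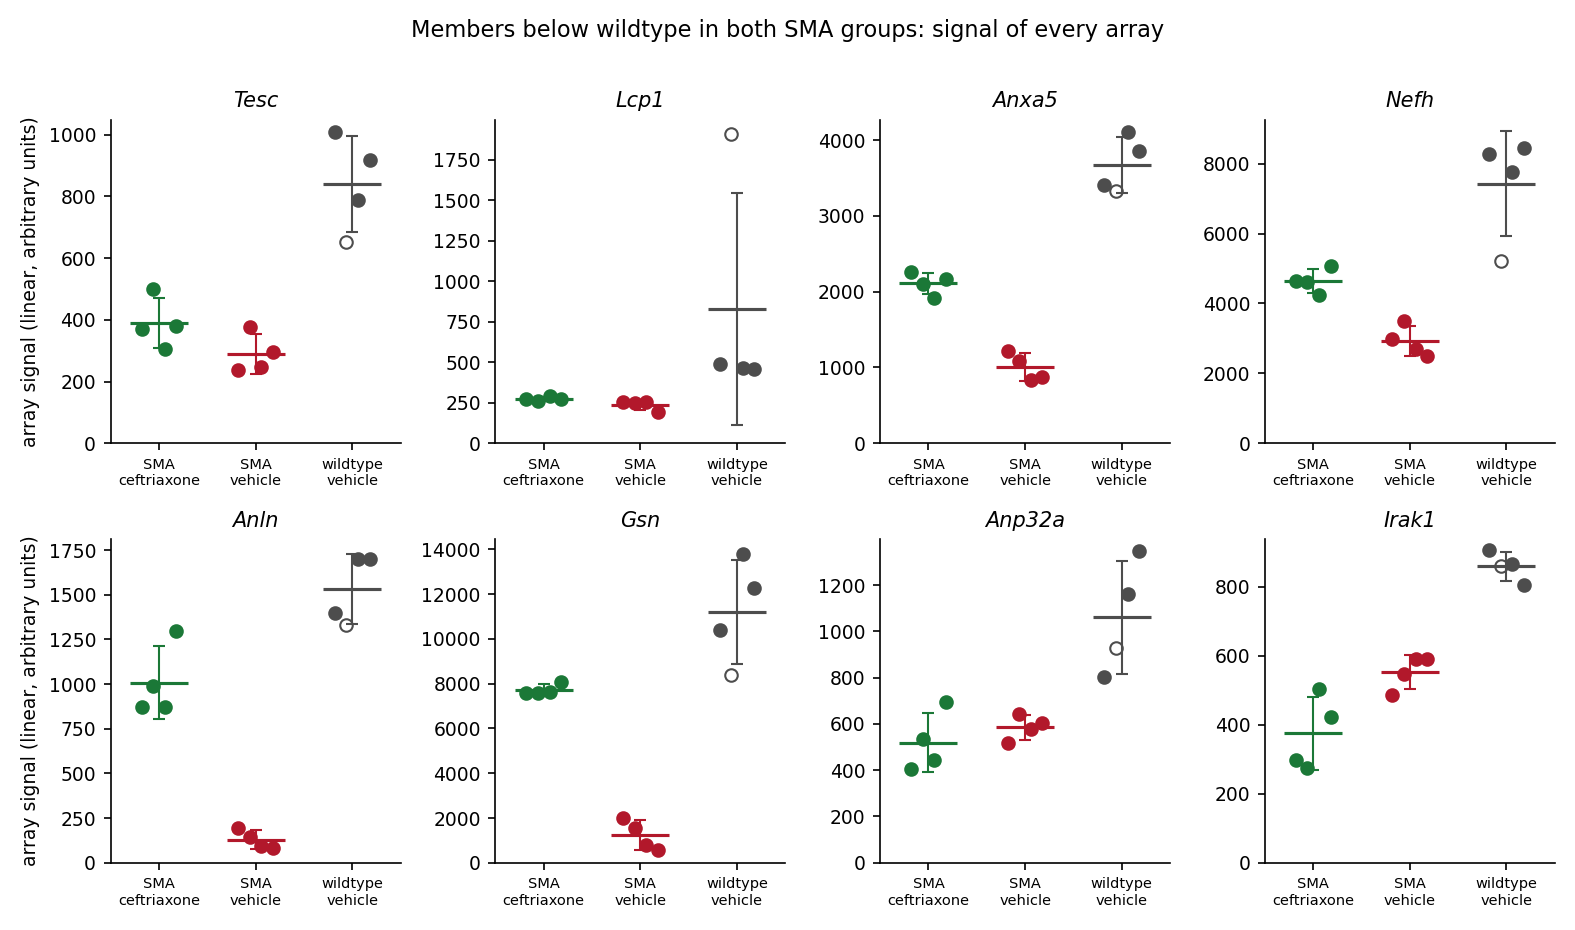
Signal of every array (linear scale, arbitrary units) for 8 members below wildtype, with SMA ceftriaxone, SMA vehicle and wildtype arrays from left to right. Lines are group means with SD (n = 4) and the open symbol is wildtype array 2, which stands far above the others for Lcp1, while for the member probe set of Irak1 the SMA ceftriaxone arrays are mostly lowest.

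The 22 members with no single gene name, 16 above and 6 below, are known only by probe set. The probe set 1425546_a_at had the largest difference in SMA vehicle cords of all members: 7680.1, 7924.7, 6592.8 and 7871.0 in SMA ceftriaxone cords, 1951.5, 1171.8, 480.4 and 382.2 in SMA vehicle cords, and 11706.7, 8440.6, 14863.8 and 15175.5 in wildtype cords. A pair of probe sets below wildtype, 1450033_a_at and 1450034_at, had 2 bright wildtype arrays each, arrays 2 and 3, with 919.9 and 1527.5 for 1450033_a_at against 323.4 and 323.8 on the others. The probe set 1436944_x_at had 2388.8 to 2795.3 in SMA ceftriaxone, 2112.6 to 2790.4 in SMA vehicle and 1008.4 to 1485.4 in wildtype cords. These 4 were chosen after their values were seen.

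Not all members rest on a single probe set. Of the 238 named genes, 31 had several member probe sets, and for 28 of these all members of the gene gave the same call between the SMA groups. Member genes above also had 113 further probe sets at or above the level, of which 97 lay above wildtype in both group means, 3 below in both and 13 on different sides. Their median differences were 0.34 in SMA ceftriaxone and 0.75 in SMA vehicle cords. For member genes below, 30 of 36 further probe sets lay below wildtype in both, 2 above in both and 4 on different sides, with medians of -0.31 in SMA ceftriaxone and -0.91 in SMA vehicle cords. Dimmer probe sets, under the level, lay on the members' side in both for 32 of 47 above and 14 of 21 below. Their medians were 0.22 and -0.06 in SMA ceftriaxone and 0.42 and -0.25 in SMA vehicle cords. The share of all probe sets on the same side of wildtype in both groups was not counted. These probe sets measure the same RNA of the same mice, so they bear on the probes and not on the mice.

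At the size threshold of 0.5, the members just inside above wildtype were Col26a1 (smaller difference 0.50), Ahi1 (0.50) and Gnaz (0.50), and those just outside were probe sets of Ppp2r1a (0.50), Car8 (0.50) and Flot2 (0.50). Below, the last inside were Cyb5r1 (-0.51 in SMA vehicle cords), B3gnt2 (-0.51) and Pip4k2a (-0.51 in SMA ceftriaxone cords), and the first outside were Cdpf1 (-0.49), another probe set of Gsn (-0.49) and Tdrp (-0.49).

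Cartpt is also a neighbour of the targeted locus. In the order of protein-coding RefSeq genes, Cartpt is 4 genes and Enc1 22 genes away from Smn1. Among the 50 protein-coding genes on either side of Smn1, 44 were measured, and these 2 (4.55%) were members, against 2.97% of all 8004 measured genes. With all RefSeq genes in the order, 14 were measured within 50 genes, and Cartpt alone was a member. Enc1, an actin-binding protein of neurons, had 3241.1 to 4396.5 in SMA ceftriaxone, 6709.0 to 8890.3 in SMA vehicle and 1948.4 to 2676.6 in wildtype cords, and was lower in SMA ceftriaxone than in SMA vehicle cords (-1.10 ± 0.13, adjusted p = 7.88e-05). Another Enc1 probe set, no member, had differences from wildtype of 0.39 in SMA ceftriaxone, with overlap, and 1.76 in SMA vehicle cords. Since the targeted allele differs between the genotypes at this locus, loss of Smn and sequence linked to that allele cannot be told apart for these 2 genes.

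Leaving out wildtype array 2 changed the size of many differences, while their side is fixed by the rule. Without it 205 of the 295 members still met the size threshold, 163 above and 42 below, and the other 90 had at least 1 SMA group closer than 0.5 to wildtype. The median differences above were then 0.57 in SMA ceftriaxone and 1.13 in SMA vehicle cords, and those below -0.58 and -1.07. Over the 205, 114 of 163 members above were lower and 26 of 42 below were higher in SMA ceftriaxone than in SMA vehicle cords. These calls are from the fit of all 12 arrays, where 17.7% of all probe sets were lower and 18.3% higher. Among the genes described above, Ebf1, Plagl1, Slc7a3, Cry2, Sox9, Aldh1l1, Ptprz1, Mgst1, Glcci1 and the members at the threshold Ahi1, Gnaz, Col26a1, B3gnt2 (at both its probe sets) and Cyb5r1 were in the 90. By role, 25 of 33 probe sets of axon growth and adhesion, 20 of 25 of transcription, 15 of 18 of peptides and growth factors, 12 of 15 of ion channels, 11 of 20 of glial genes and transport and 8 of 15 of the synapse above wildtype kept the threshold. Below it, 8 of 9 of membrane traffic, 7 of 8 of lipid and calcium signalling, 6 of 10 of immune genes and 3 of 6 of the cytoskeleton did. The arrays of high Xist signal were 4 SMA ceftriaxone and 2 SMA vehicle arrays with 1 wildtype array, too few for a count of calls. In the arrays of low Xist signal, 2 SMA vehicle and 3 wildtype, all 295 members kept a difference of at least 0.5 in SMA vehicle cords. The rule had selected on these same arrays, so the side was fixed and this does not test the part of Xist level. With SMA vehicle alone set against wildtype on these arrays, 3876 of 13574 probe sets met the rule. No SMA ceftriaxone array had a low Xist signal, so Xist level and treatment cannot be told apart there.

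**Figure D5:**
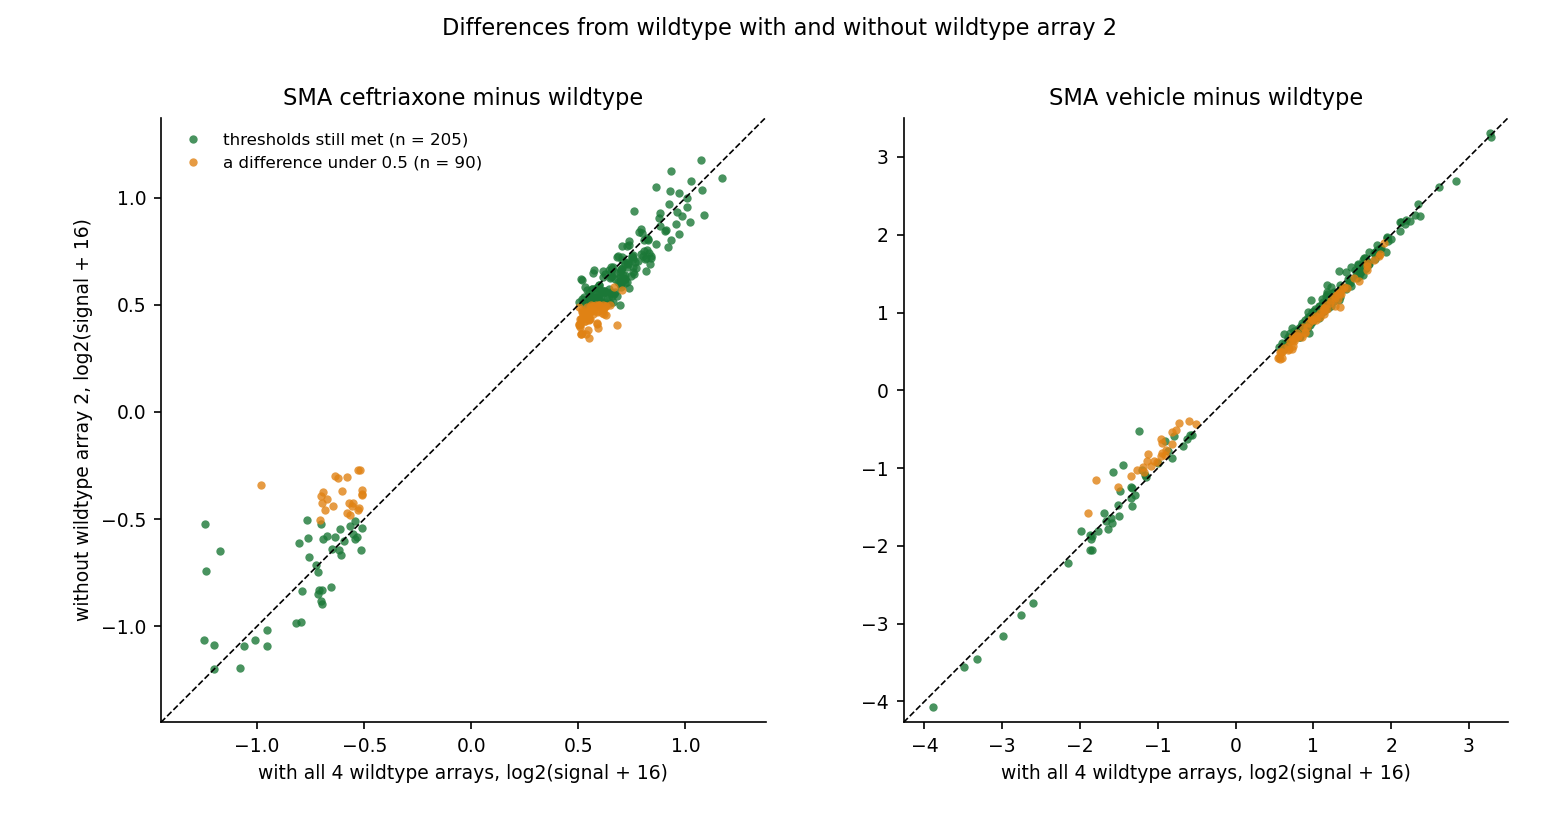
Differences of SMA ceftriaxone (left) and SMA vehicle cords (right) from wildtype in log2(signal + 16), with all wildtype arrays on the horizontal axis and without wildtype array 2 on the vertical axis, for the 295 members. The 90 members in orange had a difference under 0.5 in at least 1 SMA group once the array was left out, and the other 205 in green kept it in both.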

How the data were processed

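Each of 12 arrays measured the spinal cord RNA of 1 mouse. The authors deposited a linear signal intensity for each probe set, made with MAS5 per the submitters' processing notes (version not given in the sources used here). Its 2% trimmed mean was 700.2 on the arrays. Of 22690 probe sets, 20393 had 1 gene symbol in the platform annotation, 691 several and 1606 none, and only the first were named (20364 updated through RefSeq gene identifiers). From the deposited intensity, log2(signal + 16) was taken here, which understates differences of dim genes. After removal of 64 control probe sets, 13574 of 22626 met the level of 7.14, a geometric mean signal of about 125.

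Over all 12 arrays a mean per group was fitted (limma 3.58.1, R 4.3.3), with a trend of the variance on intensity. Adjusted p-values are two-sided, with Benjamini-Hochberg adjustment over 13574 probe sets and a threshold of 0.05. Limma was tested on simulated data. Labels do not name litters, and p-values measure the spread between mice only. The members, gene lists, roles and alternatives were chosen with earlier results of these data known. Named genes were the 12 of largest smaller difference each way, the 5 of smallest adjusted p each way, members of the lists and those next to the size threshold. Irak1, Neurod6, Pnoc, Enc1 and probe sets without a name were added after their values were seen. Probe sets ending in _x_at or _s_at can read more than 1 transcript. Alternatives were other offsets, scalings, filters, size thresholds and models, single arrays left out, and Xist and Gapdh covariates.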

Additional observations from a re-analysis of the deposited data

Results flagged for a closer look

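In 180 groups of 4 arrays, 15 held a single array that stood far from the other 3, where chance alone flags about 1 in 20 groups, and 7 of the 15 were wildtype array 2. That array was the highest of its group for Ighm (1884.6, others 217.8 to 282.6), Lcp1 (1906.7, others 456.6 to 491.3), Glcci1 (1890.4, others 285.9 to 332.7), Haus3 (662.3, others 295.5 to 325.5) and B3gnt2 (796.4, others 394.2 to 421.1). It was the lowest for Ptprz1 (1280.9, others 1655.3 to 1724.9) and Rab7b (223.3, others 354.0 to 387.5).

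Among SMA ceftriaxone arrays, array 2 was far the lowest for Scn3b (1970.4, others 2300.2 to 2374.0) and array 4 far the highest for Gsn (8088.4, others 7568.1 to 7635.6). Among SMA vehicle arrays, array 1 was far the highest for Slc7a5 (1647.1, others 1369.6 to 1404.2), array 3 the highest for Ebf1 (1910.2, others 1664.9 to 1694.1) and array 4 the lowest for Lcp1 (189.9, others 250.4 to 252.8). Among wildtype arrays, array 1 was far the highest for Sbk1 (1537.2, others 1275.0 to 1315.9), and array 3 was the highest for Col26a1 (134.1, others 121.1 to 122.6) and the lowest for Sdf2l1 (320.5, others 397.6 to 410.1).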

How the results depend on the processing

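Of 1479 values recomputed for 60 named genes under 25 settings, 0 reversed a call between the SMA groups, 1427 kept their side of the threshold, 29 lost it (Ahi1, Trmt112, Gstm1, Slc7a3 and Sox11) and 23 gained it (Snrpa1, Cry2, Glcci1, Bbc3, Tesc and Cartpt). The sign changed in 28 values that passed in neither setting. The number of members, 295, was 950 at a size threshold of 0.25 and 15 at 1, 176 with the filter at the 60th percentile, 175 with gene means in place of probe sets, and 289 to 486 when single arrays were left out (486 without wildtype array 1, 410 without wildtype array 2). On the low Xist arrays alone, where SMA vehicle alone was set against wildtype, 3876 probe sets met the rule. Members higher in SMA ceftriaxone than in SMA vehicle cords (37) numbered 20 with the 60th percentile filter and 21 with gene means, and 31 to 47 with single arrays left out. Those lower (157) numbered 91 with gene means and 139 to 169 with single arrays left out. Gene means and the stricter filter enter fewer features, and shares over all features were not counted under these settings. Other causes were not tested. Counting only members that keep the rule without wildtype array 2, an alternative chosen after seeing the data, left 26 higher and 115 lower. Replicate numbers did not pair the samples (correlations of same-numbered arrays from -0.143 to 0.133), and with the replicate block 34 members were higher and 155 lower. With 4 arrays a group, differences of about 0.12 on the log2 scale are of the size of the standard error.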

Other observations

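Several gene lists held no member, where 2.97% of all 8004 genes measured were members. Of all those genes 19.9% were higher and 17.8% lower in SMA ceftriaxone than in SMA vehicle cords. Ddit4, Klf15 and Errfi1 met the thresholds above wildtype, but the rule leaves them out by name. The absence of members on the glucocorticoid response list is therefore not a result about such genes. Of 29 measured glucocorticoid response genes, 12 were higher and 1 lower in SMA ceftriaxone than in SMA vehicle cords. Of 19 genes of cholesterol synthesis 12 were higher, and of 16 endothelial and pericyte genes 9 were higher. The 28 genes of the cell cycle and DNA replication had a median log2 difference from wildtype of -0.53 in SMA ceftriaxone and -0.28 in SMA vehicle cords. These medians include the wildtype array whose thymus and T cell markers summed to 59289.4, against 8175.4 to 8224.7 on the other wildtype arrays. They were not computed without that array, and its part in the lower medians of this list was not tested. Of 12 measured motor neuron and cholinergic genes, 0 were members, 1 was higher and 4 were lower in SMA ceftriaxone than in SMA vehicle cords. Of 5 skeletal muscle genes measured at or above the level, 0 were members. All 18 muscle markers on the array, those below the level included, summed to 1082.9 to 1970.1 in SMA ceftriaxone, 3745.3 to 7734.1 in SMA vehicle and 1973.9 to 3772.7 in wildtype arrays.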
